A study of Mus musculus with 16 samples.

Results

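Perineuronal net and brain matrix genes were followed in the hippocampus of WT and 3xTg mice infused with vehicle or with an inhibitor of stearoyl-CoA desaturase (SCDi). The genes were chosen by name, and all 10 of them were found among the 55335 genes of the count table: Acan, Bcan, Ncan, Vcan, Hapln1, Hapln2, Hapln4, Tnr, Tnc and Has3. Whole hippocampi of 16 female mice were sequenced in bulk, 4 mice in each of 4 groups, all dissected at 10 months of age after 28 days of infusion into the lateral ventricle. WT-D (strain C57BL/6J x 129S1) and 3xTg-D received 0.8% DMSO in artificial cerebrospinal fluid. WT-S and 3xTg-S, of the same genotypes, received SCDi at 80 µM in the same vehicle, so that pump surgery and DMSO were shared by every group. The treatment labels give the inhibitor as Cayman 10566, while a protocol text common to all samples names ab142089. In 3xTg mice the human APP and tau transgenes are driven by the mouse Thy1.2 element in neurons. The 3xTg line also carries a mutant PS1 knock-in, and the WT mice are the background strain rather than littermates. A bulk library cannot tell apart fewer cells of a type from less RNA per cell, and this holds for every value below.

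Perineuronal nets are sheets of extracellular matrix around the cell bodies and proximal dendrites of certain neurons, above all parvalbumin-expressing interneurons. Their backbone is hyaluronan, made at the cell membrane by hyaluronan synthases. Chondroitin sulfate proteoglycans of the lectican family bind hyaluronan at one end, link proteins of the Hapln family fasten that bond, and tenascin-R crosslinks the other ends of the lecticans. Looser matrix of the same components fills the space between brain cells and surrounds nodes of Ranvier.

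The libraries held 15413385 to 23590149 reads on genes. Of all uniquely mapped reads, 7.82% to 15.1% lay outside any annotated gene, a share given below as reads outside genes. Summed choroid plexus markers (7 genes) reached 730 CPM (read counts scaled to a common library size by the TMM method) in mouse WT-D 4 and 292 CPM in mouse WT-S 1, against at most 45.8 CPM in every 3xTg-D mouse. Markers of excitatory neurons (5 genes, among them Prox1 of the dentate gyrus) summed to 4294 to 5554 CPM, against 53.6 to 82.1 CPM for thalamus and 47.7 to 63.3 CPM for striatum markers. Thy1, whose regulatory element drives the transgenes, was at 549.9 ± 25.6 CPM (SD, n = 4) in WT-D and 570.2 ± 42.2 in WT-S, compared with 1887 ± 122 in 3xTg-D and 1845 ± 239 in 3xTg-S, so each library matched its labelled genotype.

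The lecticans were represented by 4 genes: Acan encodes aggrecan, the lectican most closely tied to nets, Bcan brevican, Ncan neurocan and Vcan versican. Hapln1, Hapln2 and Hapln4 encode link proteins, Hapln2 being known at nodes of Ranvier and Hapln4 at inhibitory synapses. Tnr encodes tenascin-R, Tnc its relative tenascin-C, and Has3 a hyaluronan synthase. In the annotation, lecticans and link proteins lay side by side. Bcan (chr3:87987531-88000230, GRCm38, minus strand) and Hapln2 (chr3:88021750-88027583, minus strand) were 21519 bases apart, and Vcan (chr13:89655312-89742509, minus strand) and Hapln1 (chr13:89539796-89611652, plus strand) 43659 bases apart. Ncan (chr8:70093085-70120873, minus strand) and Hapln4 (chr8:70083457-70090862, plus strand) faced each other with 2222 bases between their ends. Acan (chr7:79053483-79115099, plus strand) had the remaining family member, Hapln3, 2 bases from its end on the other strand. No protein-coding gene lay inside any of these gaps. Tnr (chr1:159523769-159931729, plus strand), Tnc (chr4:63959785-64047015, minus strand) and Has3 (chr8:106870242-106884566, plus strand) shared 443, 176 and 704 exonic bases with Gm38039, 8030451A03Rik and Chtf8 on the opposite strand. Since the strand setting of the counting is not given in the sources used here, reads in those bases could come from either gene.

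Promoter sequences are shown for Acan, Tnr and Hapln1, the genes whose levels moved together or oppositely across the mice (below). Each is the 250 bases before the RefSeq start (GRCm38.p6, plus strand), 5′ to 3′, at chr7:79052976-79053225 for Acan, chr1:159523519-159523768 for Tnr and chr13:89540386-89540635 for Hapln1. Capitals mark matches, on either strand, to the motifs searched: the TATA box as TATAAA, the CCAAT box, the GC box as GGGCGG, the E-box as CACGTG, the AP-1 site as TGACTCA and the cAMP response element as TGACGTCA.
Acan: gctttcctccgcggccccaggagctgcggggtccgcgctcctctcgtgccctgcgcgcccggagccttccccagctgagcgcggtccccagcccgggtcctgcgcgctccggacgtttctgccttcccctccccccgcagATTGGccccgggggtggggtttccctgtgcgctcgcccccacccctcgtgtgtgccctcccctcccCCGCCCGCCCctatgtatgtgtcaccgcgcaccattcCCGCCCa
Tnr: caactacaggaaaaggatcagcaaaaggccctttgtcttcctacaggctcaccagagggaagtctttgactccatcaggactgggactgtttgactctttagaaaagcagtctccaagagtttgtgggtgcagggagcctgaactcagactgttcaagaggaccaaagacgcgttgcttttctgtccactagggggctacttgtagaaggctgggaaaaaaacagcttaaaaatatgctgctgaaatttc
Hapln1: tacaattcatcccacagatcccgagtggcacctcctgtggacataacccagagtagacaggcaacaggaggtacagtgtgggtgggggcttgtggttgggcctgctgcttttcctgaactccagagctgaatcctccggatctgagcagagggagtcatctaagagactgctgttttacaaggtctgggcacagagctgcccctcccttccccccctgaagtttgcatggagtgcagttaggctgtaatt
The Acan window held 26 CpG sites with 74.4% G or C, while the Tnr and Hapln1 windows held 2 CpG sites each, with 46.8% and 54.4% G or C, against a median of 6 CpG sites over 32851 RefSeq windows of the same length. Acan had a CCAAT box on the other strand, beginning 110 bases before the start, and GC boxes on the other strand beginning 44, 40 and 7 bases before it, the first 2 of these overlapping. Over all windows, 33.8% held a CCAAT box and 32.7% a GC box, while 12.4% held a TATA box, 6.02% the E-box, 4.46% the AP-1 site and 1.55% the cAMP response element. None of the 6 motifs was in the Tnr or Hapln1 window, which says only that these letters were absent there. The Gencode gene starts of Acan and Hapln1 differ from the RefSeq starts used for the windows. RefSeq windows were matched for 8 of the 10 genes.

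To compare the genes with each other, CPM was divided by the kilobases of exon of each gene. Bcan stood highest at 38.2 ± 2.70 CPM per kilobase (SD over 16 mice), then Hapln4 at 29.7 ± 3.58, Tnr at 21.2 ± 3.42 and Ncan at 17.0 ± 1.46. Hapln1 followed at 11.5 ± 1.15, Hapln2 at 7.35 ± 1.21 and Vcan at 2.59 ± 0.351. Tnc at 0.583 ± 0.216, Acan at 0.575 ± 0.141 and Has3 at 0.331 ± 0.0622 CPM per kilobase were lowest. Bcan thus stood 115-fold above Has3 on this scale. Neighbours in this order overlapped in their ranges over the mice, except that Ncan stood wholly above Hapln1, Hapln2 wholly above Vcan, and Vcan wholly above Tnc. Dividing by the longest transcript instead raised Bcan to 49.4 and Vcan to 3.01 CPM per kilobase.

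**Figure D1:**
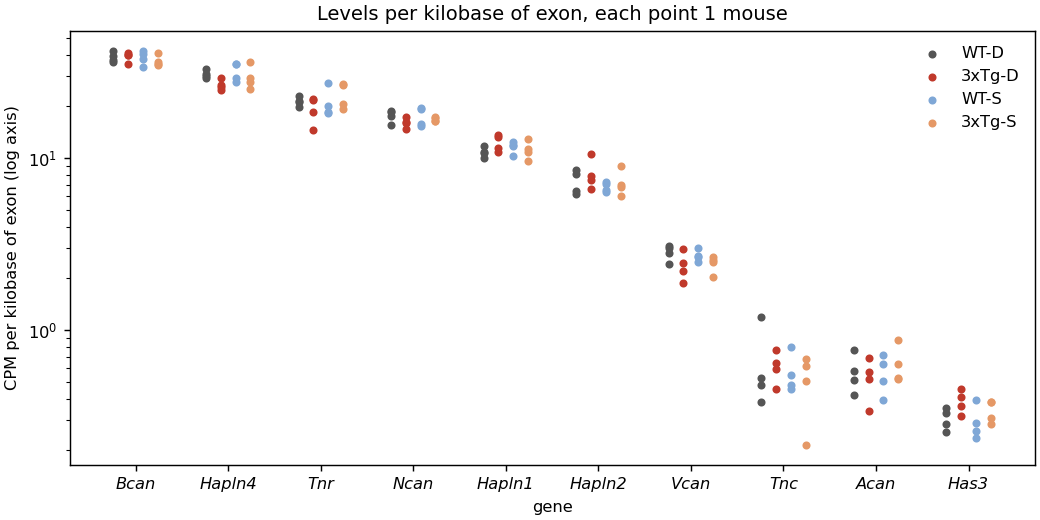
Level of each gene in CPM per kilobase of exon (log axis), 1 point per mouse, coloured by group and ordered by the mean over 16 mice. Bcan, Hapln4, Tnr and Ncan lie at the top, with means of 17.0 to 38.2, while Tnc, Acan and Has3 lie no higher than 1.18 in any mouse.

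The spread between mice of a group differed among the genes. The coefficient of variation of CPM within groups was 7.48% for Bcan and 8.66% for Ncan, where counting error alone would give 1.81% and 2.04%. It was 16.1% for Tnr, against 1.37% from counting. Tnc was the most variable at 40.1%, followed by Acan at 26.3%, with counting errors of 10.6% and 10.98%. For Has3, with 30 to 55 reads per mouse, a within-group variation of 17.0% was hardly above the counting error of 15.6%. Mouse WT-D 1 had 218 Tnc reads (9.21 CPM), while the other WT-D mice had 62 to 80 reads (2.98 to 4.09 CPM).

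All 10 genes passed the filter on low counts and were tested along with the other genes that passed it, 16475 in all, with edgeR (quasi-likelihood test, two-sided). P-values of 0.01 or less before adjustment counted as calls, and adjusted p-values are Benjamini-Hochberg values over all genes tested. The first question was how the matrix genes differed between vehicle-infused 3xTg and WT mice. Hapln4 was called, at a lower level in 3xTg-D, and the other 9 genes were not (1 of 10 called). Over all genes tested, 4.91% were called in this comparison and 12.6% had a p under 0.05. No matrix gene passed an adjusted p of 0.05, which 1.85% of all genes did. Of the 10 genes, 6 had log2 fold changes (3xTg-D over WT-D) below 0 and 4 above, with a median of −0.09, beside −0.00 over all genes tested.

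Hapln4 was at 121, 129, 118 and 114 CPM in the WT-D mice and at 105, 101, 97.9 and 114 CPM in the 3xTg-D mice. The groups did not overlap, though the highest 3xTg-D mouse and the lowest WT-D mouse were nearly level. Among all genes tested, 8.17% did not overlap between these groups. The log2 fold change of Hapln4 was −0.21 ± 0.06 (SE), a change of −13.3%, with a p of 0.0061 and an adjusted p of 0.156 by edgeR. The call was lost when any of the mice WT-D 1, 2 and 3 or 3xTg-D 1, 2 and 3 was left out, with p-values of 0.0108 to 0.0222 by edgeR, and with all 16 mice in the fit the p was 0.0595. With a log2 fold change of −0.24 and a p of 0.00398 (edgeR), it was kept without WT-D 4, the library with the highest choroid plexus markers. DESeq2 also called Hapln4 in this comparison. In the same comparison, 2 of the 7 oligodendrocyte markers reported here were called higher in 3xTg-D, Mbp and Mobp, which encode myelin proteins. Their log2 fold changes were 0.49 ± 0.09 and 0.39 ± 0.08 (SE), with adjusted p-values of 0.0214 and 0.0275 by edgeR. The other 5 were not called, with log2 fold changes of −0.40 for Opalin, −0.09 for Mog, 0.02 for Mag, 0.17 for Ermn and 0.19 for Cldn11. Summed over the 7 markers, the level was 2804 to 3366 CPM in the WT-D mice and 3625 to 4627 CPM in the 3xTg-D mice. Of the 5 oligodendrocyte precursor markers, 1 was called, Olig2, with a log2 fold change of −0.52 ± 0.14 (p 0.0034, adjusted p 0.11, edgeR). The part of these markers in the Hapln4 difference was not tested.

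The lecticans did not pass the threshold between 3xTg-D and WT-D. Vcan was at 40.6, 44.9, 43.5 and 34.9 CPM in WT-D and at 35.7, 27.2, 42.8 and 31.8 CPM in 3xTg-D, with groups that overlapped. Its log2 fold change was −0.25 ± 0.13 (SE), with a p of 0.0764 by edgeR's test. Without mouse 3xTg-D 3 alone, the highest of its group, the value was −0.38 with a p of 0.0076, past the threshold. Ncan had a log2 fold change of −0.13 ± 0.07 and Bcan of 0.00 ± 0.06, with 95% intervals of −0.29 to 0.03 and −0.14 to 0.15. For Acan the interval was wide, from −0.64 to 0.42.

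Hapln1, the link protein gene found in most nets, was at 63.4, 69.7, 63.7 and 59.4 CPM in WT-D and at 67.3, 80.9, 77.9 and 64.1 CPM in 3xTg-D. These overlapped, and the log2 fold change was 0.18 ± 0.08 (SE), with a p of 0.0536 by edgeR. With the share of reads outside genes as a covariate the value was 0.06, with a p of 0.389. Hapln2 had a log2 fold change of 0.15 ± 0.15, Tnr of −0.16 ± 0.11 and Has3 of 0.34 ± 0.18, with edgeR p-values of 0.34, 0.203 and 0.0842. Has3 was at 1.82, 1.63, 2.10 and 2.25 CPM in WT-D and at 2.91, 2.31, 2.60 and 2.02 CPM in 3xTg-D, which overlapped. Tnc had a log2 fold change of −0.07 ± 0.33. Without mouse WT-D 1 the Tnc value was 0.41, with a p of 0.0594, so its sign was set by that library.

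**Figure D2:**
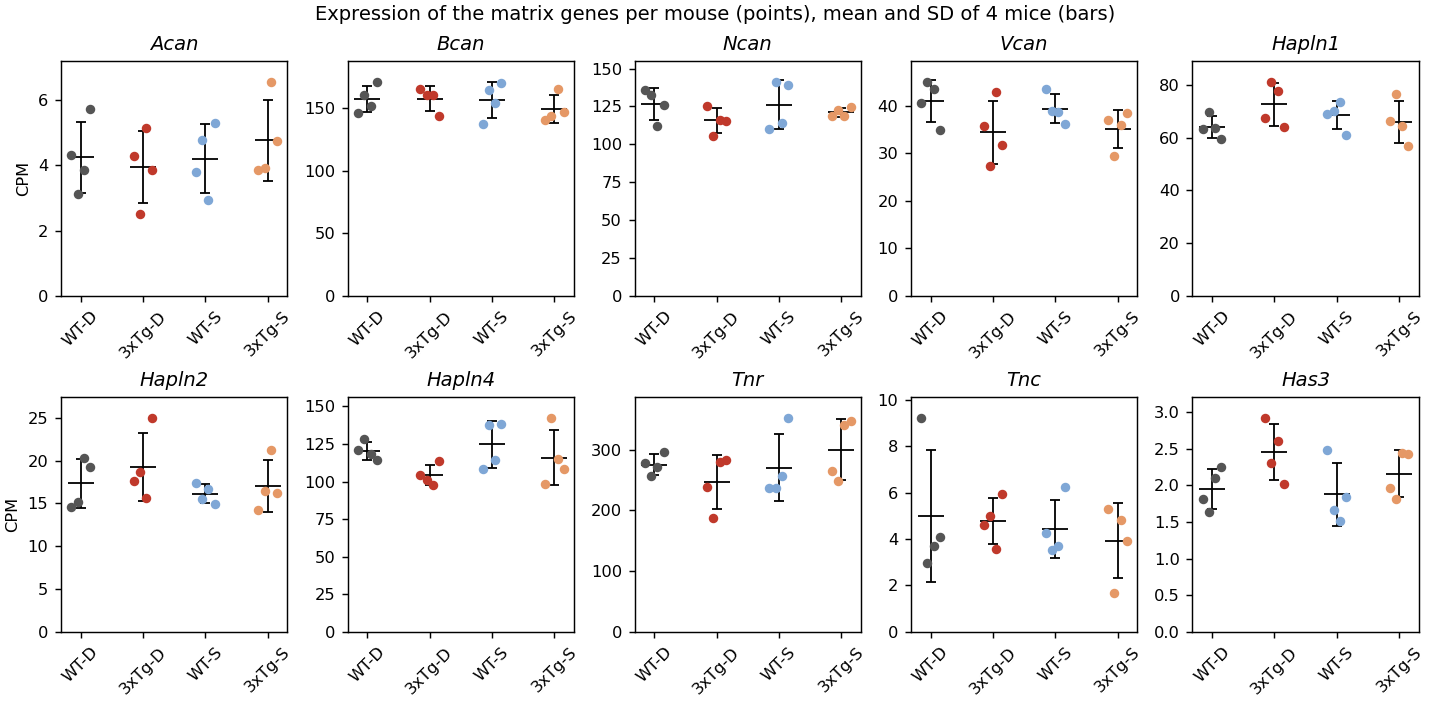
CPM of each gene in every mouse (points) by group, with the mean and SD of 4 mice (bars) and axes from 0. Groups that were compared overlap in every panel, except Hapln4 in 3xTg-D (97.9 to 114) and WT-D (114 to 129), and the high WT-D point of Tnc is 9.21 CPM.

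Under SCDi the genotypes were compared in a second, separate set of mice. No matrix gene was called between 3xTg-S and WT-S (0 of 10, edgeR), none had an unadjusted p under 0.05, and DESeq2 called none. Over all genes tested, 4.26% were called and 10.7% had a p under 0.05. Hapln4 was at 108, 138, 114 and 139 CPM in WT-S and at 98.7, 142, 115 and 108 CPM in 3xTg-S. These groups overlapped widely, with a log2 fold change of −0.12 ± 0.12 (SE) and a p of 0.369 by edgeR. Vcan was at 43.5, 38.8, 38.6 and 36.2 CPM in WT-S and at 36.9, 29.4, 35.8 and 38.4 CPM in 3xTg-S, a log2 fold change of −0.18 ± 0.10 with a p of 0.10 by edgeR. Of the 10 genes, 6 had the same sign of 3xTg over WT difference with vehicle and with SCDi: Ncan, Vcan, Hapln4 and Tnc were below 0 in both and Hapln2 and Has3 above. Over all genes tested, 52.6% had the same sign.

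The next question was what SCDi changed within each genotype. In WT mice no matrix gene was called (0 of 10, edgeR, and none at a p under 0.05 or by DESeq2), with 0.188% of all genes called and 2.25% at a p under 0.05. The log2 fold changes (WT-S over WT-D) ran from −0.18 for Tnc to 0.10 for Hapln1. For the lecticans Bcan and Ncan the 95% intervals were −0.17 to 0.16 and −0.22 to 0.20, and for Hapln4 −0.14 to 0.24. Intervals for the low genes Acan and Tnc reached from −0.51 to 0.48 and from −0.93 to 0.57, so changes of such a size were not detectable at this depth and spread. These fits did not pair mice by their number. With the number as a block, 0 of 10 were called (edgeR), beside 0.698% of all genes.

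In 3xTg mice no matrix gene was called either (0 of 10, edgeR, and none at a p under 0.05 or by DESeq2), with 0.904% of all genes called and 6.33% at a p under 0.05. Tnr had the smallest p of the 10 in this comparison, at 0.0853 by edgeR. It was at 238, 188, 279.6 and 283 CPM in 3xTg-D and at 265, 248, 340.0 and 347 CPM in 3xTg-S, which overlapped, for a log2 fold change of 0.28 ± 0.15 (SE). In the fit with the share of reads outside genes as a covariate the value was 0.16, with a p of 0.214. With the mouse number as a block Tnr was called, at 0.28 with a p of 0.000838 and an adjusted p of 0.0541 by edgeR. In that fit 6.88% of all genes were called, and Hapln1 had a p of 0.0349. Hapln4, whose level in 3xTg-D was below that in WT-D, had a log2 fold change of 0.15 ± 0.11 (3xTg-S over 3xTg-D), with a 95% interval of −0.08 to 0.39. The median of the 10 genes was −0.02, beside 0.01 over all genes tested.

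**Figure D3:**
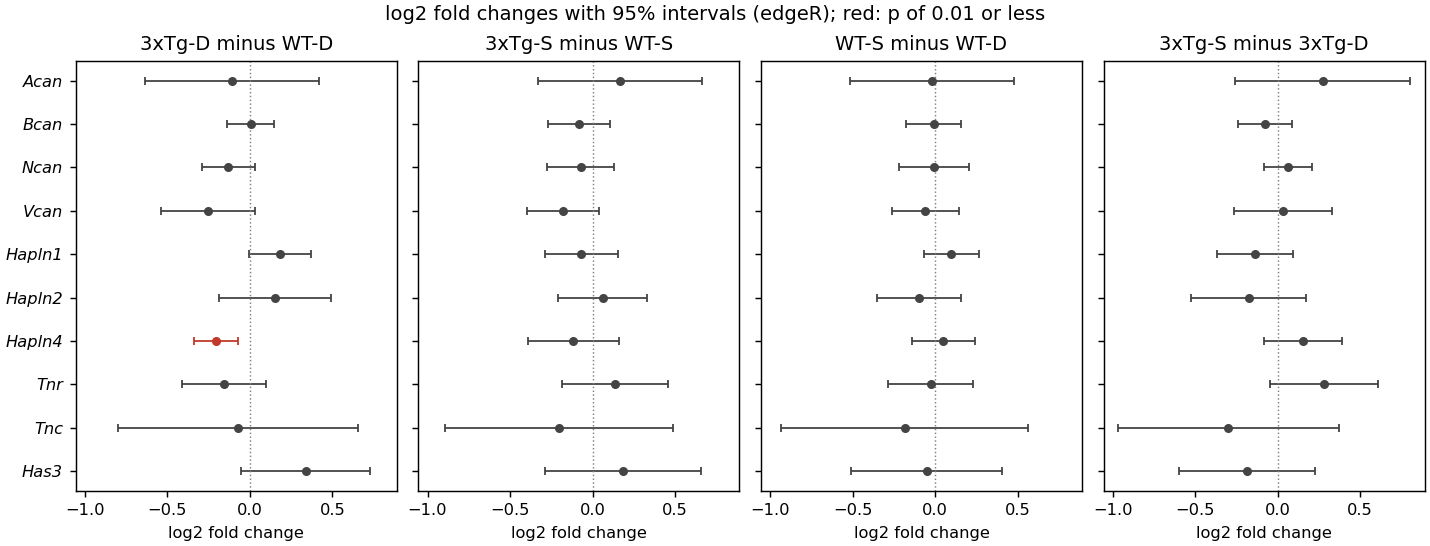
log2 fold changes with 95% intervals for the 10 genes in 4 comparisons (edgeR), red where p was 0.01 or less. Hapln4 in 3xTg-D minus WT-D, at −0.21, is the red point, and the intervals of the other genes in these panels cross 0.

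SCDi-infused 3xTg mice were also set against vehicle-infused WT mice, which share their libraries with the comparisons above. No matrix gene was called (0 of 10, edgeR and DESeq2), with 5.69% of all genes called. At a p under 0.05 there was 1 matrix gene, and 13.1% of all genes. That gene was Vcan, with a log2 fold change (3xTg-S over WT-D) of −0.24 ± 0.10 (SE), a p of 0.0372 and an adjusted p of 0.333 by edgeR. Without mouse WT-D 4, one of the libraries with raised choroid plexus markers, the Vcan value was −0.31, with a p of 0.00924. Hapln4 stood at −0.07 ± 0.10 in this comparison. Whether SCDi acted differently in 3xTg and WT mice was tested by the interaction of genotype and treatment over all 16 mice. No matrix gene was called (0 of 10, edgeR, and none at a p under 0.05 or by DESeq2), with 0.595% of all genes called and 4.98% at a p under 0.05. The interaction of Hapln1 was −0.23 ± 0.13 and that of Tnr 0.31 ± 0.21 on the log2 scale, with p-values of 0.0963 and 0.156 by edgeR. With the mouse number as a block they were −0.23 and 0.33, with p-values of 0.0108 and 0.0154 by edgeR. The adjusted p-values there were 0.2625 and 0.28, and 13.5% of all genes had a p under 0.05 in that fit.

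Net-bearing interneurons were followed by Pvalb, which encodes parvalbumin. Pvalb was at 27.6 ± 5.01 CPM (SD, n = 4) in WT-D, close to 27.7 ± 2.04 CPM in 3xTg-D, and with SCDi at 30.7 ± 6.15 CPM in WT mice and 25.2 ± 4.24 CPM in 3xTg mice. Pvalb was not called in any comparison. It is 1 of 7 inhibitory neuron markers, of which Vip and Lhx6, which encode a neuropeptide and a transcription factor of interneurons, were called higher in 3xTg-D than in WT-D. Their log2 fold changes were 0.56 ± 0.10 and 0.29 ± 0.08 (SE), with adjusted p-values of 0.0175 and 0.138 by edgeR. Between 3xTg-S and WT-D both were called higher again, at 0.46 ± 0.11 and 0.41 ± 0.07 (adjusted p-values of 0.0829 and 0.0191, edgeR). Lhx6 was also called higher in WT-S than in WT-D, at 0.27 ± 0.08 with a p of 0.0061 and an adjusted p of 0.9996 by edgeR. The part of these markers in the levels of the matrix genes was not tested.

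Across the 16 mice, the levels of some matrix genes moved with each other. Of 45 pairs of genes, Hapln1 and Tnr had the strongest relation, an inverse one. Pearson's r of their log2 CPM was −0.755 (permutation p 0.00056, adjusted 0.0252 over the 45 pairs) and Spearman's rho −0.729 (permutation p 0.00179, adjusted 0.0806). Within the 8 WT mice r was −0.777 and within the 8 3xTg mice −0.765, and without the 2 mice farthest from the median of Hapln1 it was −0.562. Acan and Tnr rose together, with an r of 0.739 (permutation p 0.0013, adjusted 0.0293) and a rho of 0.662 (permutation p 0.00666, adjusted 0.0999). Their r was 0.561 in WT and 0.854 in 3xTg mice, and 0.512 without the 2 mice farthest from the median of Acan. By rho, neither pair passed an adjusted 0.05. In each group the mouse numbered 4 had the lowest Hapln1 (56.9 to 64.1 CPM) and the highest Tnr (283 to 351 CPM). The part of the mouse number in the relation of Hapln1 and Tnr was not tested.

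Both Hapln1 and Tnr were also related to the share of reads outside annotated genes. With the share, the r of Hapln1 was −0.844 (permutation p 7e-05, adjusted 0.0007 over 10 relations) and rho −0.859 (permutation p 7e-05, adjusted 0.0007). It was −0.772 when the 2 mice with the most extreme shares were left out, −0.832 within WT and −0.892 within 3xTg mice. For Tnr r was 0.747 (permutation p 0.00096, adjusted 0.0048) and rho 0.738 (permutation p 0.00152, adjusted 0.0076), with an r of 0.731 without the 2 mice, 0.866 within WT and 0.700 within 3xTg mice. Acan had an r of 0.451 (permutation p 0.0782, adjusted 0.261) and a rho of 0.418 (permutation p 0.108, adjusted 0.269) with that share. The share was lowest in the mouse numbered 2 of each group (7.82% to 10.5%).

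Marker sums were set against the 10 genes after their values were seen, in 40 relations with 4 marker lists (astrocytes, oligodendrocyte precursors, inhibitory and excitatory neurons). Hapln1 had an r of 0.868 with the summed astrocyte markers (permutation p 2e-05, adjusted 0.0008) and a rho of 0.871 (permutation p 2e-05, adjusted 0.0008). Without the 2 mice farthest from the median its r was 0.776, and it was 0.834 within WT and 0.911 within 3xTg mice. With the summed oligodendrocyte precursor markers the r of Hapln1 was 0.783 (permutation p 0.00039, adjusted 0.0078) and its rho 0.815 (permutation p 0.00023, adjusted 0.0046), with an r of 0.677 without the 2 mice, 0.729 within WT and 0.878 within 3xTg mice. Tnr ran the other way with the astrocyte markers, with an r of −0.672 (permutation p 0.00444, adjusted 0.0592) and a rho of −0.577 (permutation p 0.0212, adjusted 0.187), an r of −0.546 without the 2 mice, −0.594 within WT and −0.811 within 3xTg mice, and did not pass the correction. As a description with no test, r with the sum of the 7 oligodendrocyte markers was 0.603 for Hapln1 and −0.696 for Tnr. The summed astrocyte markers were lowest in the mouse numbered 4 of each group (5810 to 6135 CPM). The parts of the share of reads and of these markers in the relations between the genes were not tested. The part of the mouse number in the relations with the share and the markers was not tested either.

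**Figure D4:**
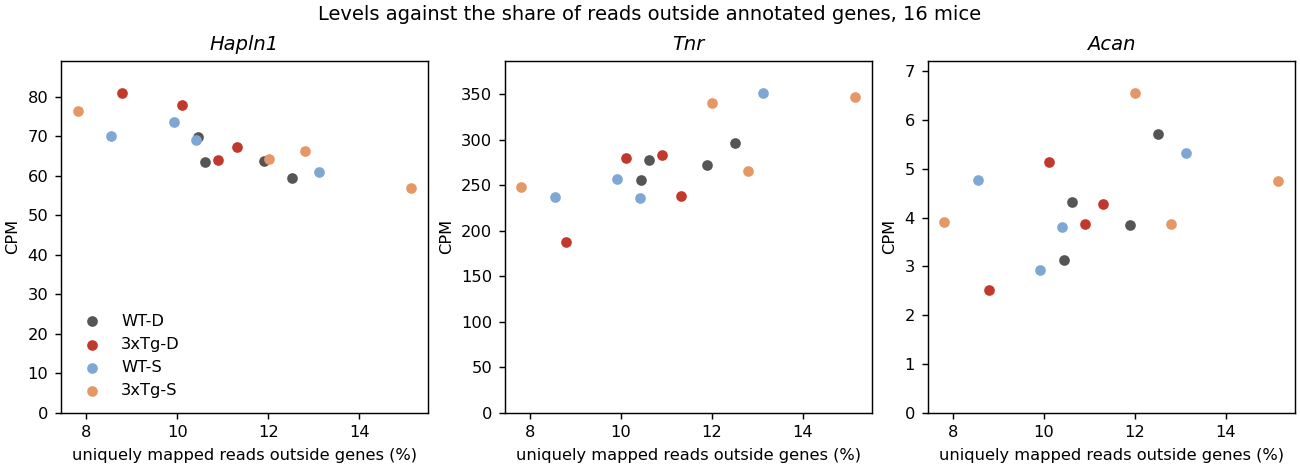
CPM of Hapln1, Tnr and Acan (y axes from 0) against the percentage of uniquely mapped reads outside annotated genes, 1 point per mouse, coloured by group. Hapln1 falls (r −0.844) and Tnr rises (r 0.747) from mice with 7.82% to mice with 15.1%.

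Neighbouring lectican and link protein genes did not share one pattern. Ncan and Hapln4 had an r of 0.643 (permutation p 0.00787, adjusted 0.0885 over 45 pairs) and a rho of 0.538 (permutation p 0.0342, adjusted 0.22), with an r of 0.432 without the 2 mice farthest from the median of Ncan. It was 0.838 in WT and 0.328 in 3xTg mice. Bcan and Hapln2 had an r of 0.0312 (permutation p 0.91) and a rho of 0.135, and Vcan and Hapln1 an r of −0.238 (permutation p 0.376) and a rho of −0.0118. Hapln4 and Has3 were inversely related, with an r of −0.651 (permutation p 0.00696, adjusted 0.0885) and a rho of −0.682 (permutation p 0.00427, adjusted 0.0961), and an r of −0.649 without the 2 mice farthest from the median of Hapln4.

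**Figure D5:**
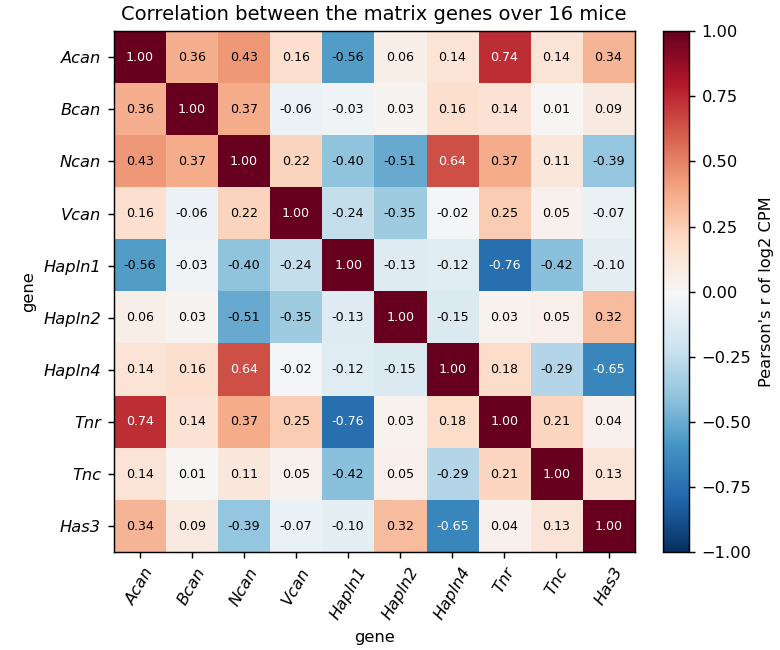
Pearson's r of log2 CPM over 16 mice for every pair of the 10 genes, red positive and blue negative. Hapln1 and Tnr (−0.76) and Acan and Tnr (0.74) are the strongest cells off the diagonal.

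The genes with the most similar pattern over the 16 mice differed from gene to gene, as a description with no test. Tnr was most like Trio, Sptbn1 and Atrn (r of 0.953, 0.953 and 0.952), and Hapln1 most like Gpm6b, Tmem59 and Fundc2 (0.942, 0.940 and 0.933). The r of these genes with the share of reads outside genes was 0.716 to 0.843 for those like Tnr and −0.827 to −0.818 for those like Hapln1. Ncan was most like Camk2b (0.884), a subunit of a synaptic kinase, Hapln4 most like Fam219a (0.887) and Vcan most like Dpysl3 (0.864). Acan was most like Entpd6 (0.878), Bcan most like Pex6 (0.785), Has3 most like Cwf19l1 (0.779) and Hapln2 most like Klc4 (0.745). Tnc was most like Aldh1l2 (0.928), and 0.894 remained without mouse WT-D 1, a check added after the values were seen.

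The other genes of matrix assembly and turnover were read from 5 lists with 79 tested genes. Of these, 4 were called between 3xTg-D and WT-D (5.06%, beside 4.91% of all genes) and 2 between 3xTg-S and WT-S (2.53%, beside 4.26%). None of the 19 tested genes of chondroitin sulfate chain synthesis was called between 3xTg-D and WT-D or between 3xTg-S and WT-S, nor were any of the 9 genes of hyaluronan synthesis, binding and breakdown or the 15 matrix receptor genes. Among 19 proteases and inhibitors, 1 was called with a lower and 1 with a higher level in 3xTg-D compared with WT-D, and 1 with a lower level in 3xTg-S compared with WT-S. The gene lower in both was Adamts1, which encodes a protease that cleaves aggrecan and versican. Adamts1 was at 22.0 to 27.8 CPM in WT-D and at 11.4 to 18.3 CPM in 3xTg-D, which did not overlap (as for 8.17% of all genes), for a log2 fold change of −0.59 ± 0.14 (SE), a p of 0.0015 and an adjusted p of 0.0669 by edgeR. It was at 20.02 to 24.1 CPM in WT-S and at 15.03 to 19.1 CPM in 3xTg-S, again with no overlap (6.75% of all genes), and its log2 fold change was −0.40 ± 0.10 with an adjusted p of 0.116. Between 3xTg-S and WT-D the log2 fold change of Adamts1 was −0.54 ± 0.10, with an adjusted p of 0.0222 by edgeR. The higher gene was Mmp15, a membrane-bound metalloprotease, with a log2 fold change of 0.48 ± 0.11 (p 0.0018, adjusted 0.0752, edgeR).

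Among 17 other net and matrix components, Crtac1 (0.20 ± 0.05) and Matn2 (0.24 ± 0.07), which encode a cartilage acidic protein and a matrilin, were called higher in 3xTg-D than in WT-D, with edgeR p-values of 0.0028 and 0.0052. The shares called over all genes were 4.91% there and 4.26% between 3xTg-S and WT-S. Sparc, which encodes a collagen-binding matrix glycoprotein, was called lower in 3xTg-S than in WT-S, at −0.49 ± 0.11 (p 0.0013, adjusted 0.0729, edgeR). Between 3xTg-S and WT-D, 6 of the 79 list genes were called (7.59%, beside 5.69% of all genes), Adamts1 among them. The chondroitin synthase Chsy1 (0.30 ± 0.08), Crtac1 (0.21 ± 0.06) and the testican Spock2 (0.18 ± 0.05) were called higher. Sparc (−0.29 ± 0.08) and the integrin subunit Itgb1 (−0.22 ± 0.07) were called lower, and the adjusted p-values of these 5 genes were 0.0871 to 0.16 by edgeR. No gene of the 5 lists was called between WT-S and WT-D (0.188% of all genes) or between 3xTg-S and 3xTg-D (0.904% of all genes).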

How the data were processed

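The 16 samples were grouped by their titles and strain and treatment labels. Reads were trimmed with Trimmomatic 0.35 and aligned with STAR 2.5.1b to GRCm38 per the labels, and the authors deposited raw read counts per gene, without normalization. Libraries were made from polyadenylated RNA with molecular identifiers. Strand setting and duplicate removal are not given in the sources used here. The table also held 4 alignment summary lines, which were left out of library sizes. Counts (15413385 to 23590149 per mouse on genes) were analysed in R 4.3.3 with edgeR 4.0.16. filterByExpr (minimum count 10, minimum total 15) kept 16475 genes, libraries were scaled by TMM, and pairs of groups were fitted by glmQLFit and glmQLFTest without other terms. The interaction was fitted to all 16 mice. Calls were made at a p of 0.01 or less and at an adjusted p of 0.05 or less. CPM used TMM-scaled libraries, and log2 CPM a prior count of 2. Correlations were tested with 100000 permutations (scipy 1.17.1). Exon lengths and gene positions came from Gencode M21 (GRCm38), in which 54587 of the 55335 gene IDs were found, all at the same position. Alternatives were median-ratio factors, other filters, all 16 mice in 1 fit, the replicate block, DESeq2 1.42.0 (also with DEGES, 3 iterations), 2 covariates and each mouse left out. The labels number the mice 1 to 4 in each group. Deviations from group means of same-numbered mice correlated in every pair (0.114 to 0.340) between WT-S and WT-D. The lowest pair was at 0.0158 between 3xTg-S and 3xTg-D and at 0.0616 between 3xTg-S and WT-D. It was −0.101 between 3xTg-S and WT-S, where the mean was 0.241 and the highest 0.496, beside −0.0839 for mice of different numbers. Between 3xTg-D and WT-D it was −0.096, where the mean was 0.0414, beside −0.0103 for mice of different numbers. Whether the number pairs mice is not given by the labels. The values printed for WT-S and WT-D come from fits without the replicate block. The fits were tested on simulated counts. Genes named are the 10 matrix genes, called genes of the 5 lists, and the 3 genes of at least 5 CPM most correlated with each matrix gene, of which some are printed. The matrix genes and lists were chosen with earlier results of these data known. Each library was 1 mouse. Some items are not reported here. The threshold of 0.01 is that of the study.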

Additional observations from a re-analysis of the deposited data

Results flagged for a closer look

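Sparc was the 1 gene of the 79 list genes called in the interaction test of genotype and SCDi, where 0.595% of all genes were called, with −0.43 on the log2 scale (p 0.0079, adjusted p 0.788, edgeR). It did not pass the correction over all genes. Sparc was at 191.9 to 219.97 CPM in WT-D and 198 to 267 CPM in WT-S, and at 182 to 233 CPM in 3xTg-D and 148 to 191 CPM in 3xTg-S. The call was lost in 10 of the 16 fits that left out 1 mouse, with p-values of 0.0113 to 0.0198 there. None of the 40 sets of 4 values (10 matrix genes in 4 groups) held a mouse past the critical value of Dixon's ratio for 4 samples, the high Tnc of WT-D 1 included.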

How the results depend on the processing

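Of 1200 recomputed log2 fold changes of the matrix genes, 1186 stayed on their side of the threshold, 10 lost a call, 4 gained one, and none that was called turned its sign. Hapln4 between 3xTg-D and WT-D was the only call in the main fits. All 10 lost calls were therefore its own, and nearly all values that stayed were uncalled in both fits. The setting with the adjusted p changed the threshold and not the fit. In 74 the sign turned while the value was uncalled in both fits. Between 3xTg-D and WT-D the number of matrix genes called was 0 with all 16 mice in the fit, 0 with the share of reads outside genes as a covariate, 0 at the adjusted p, and 0 to 1 when mice were left out in turn. The single call in those fits was Hapln4 without WT-D 4 or without 3xTg-D 4, and Vcan in place of Hapln4 without 3xTg-D 3. Between 3xTg-S and WT-D the number was 0 to 1 in the fits that left out 1 mouse, the call being Vcan without WT-D 4. A setting without WT-D 4 and WT-S 1 was chosen after seeing the data. WT-S 1 has no part in this comparison, so that setting repeats the fit without WT-D 4. Its Vcan call appears again among the gained calls above. The causes were not tested.

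With the replicate block, 0 matrix genes were called between 3xTg-D and WT-D, where Hapln4 had a p of 0.0111, and 1 between 3xTg-S and 3xTg-D (beside 5.73% and 6.88% of all genes), where Tnr had a log2 fold change of 0.28, a p of 0.000838 and an adjusted p of 0.0541 (edgeR). Correlations of same-numbered mice there ran from 0.0158 to 0.391, with a mean of 0.213, beside −0.0656 for mice of different numbers. The labels give only the number, and whether it pairs mice was not tested. The block changed no other call of the 10 genes.

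Of 254 recomputed values of the called list genes, 71 lost the call and 0 turned their sign. Adamts1 kept it between 3xTg-D and WT-D and between 3xTg-S and WT-D whichever mouse was left out. It lost it between 3xTg-S and WT-S without WT-S 1 or 3xTg-S 1 (p of 0.01001 to 0.0108). Matn2 lost it without WT-D 1, WT-D 3 or 3xTg-D 3 (p of 0.0153 to 0.0188) and Crtac1 without WT-D 4 (p of 0.0111) between 3xTg-D and WT-D. Between 3xTg-S and WT-D, Crtac1, Sparc, Spock2 and Itgb1 lost it without 5, 5, 6 and 6 of 8 mice. The spread within groups was near the counting error for Has3 (a coefficient of variation of 17.0% beside 15.6%), while for Acan (26.3% beside 10.98%) and Tnc (40.1% beside 10.6%) the mice differed by more than that.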
